A study of Homo sapiens with 4 samples.

Results

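This report describes 8 human genes: the kinase genes TBK1 and IKBKE, and the interferon regulatory factor (IRF) genes IRF1, IRF2, IRF3, IRF5, IRF7 and IRF8. They were chosen by name, with earlier results of these data known, from the gene symbols of the count files. The files list 61228 features, and all 8 genes have a row. H1792, an established human lung cancer cell line labelled as wild type, was kept for 96 h with the solvent DMSO or with ACBI1, at a dose that the labels write as 1 mM, a unit that could not be checked. ACBI1 is a PROTAC that brings the SWI/SNF ATPases SMARCA2 and SMARCA4 and the subunit PBRM1 to the VHL ubiquitin ligase for degradation. Each group held 2 RNA-seq libraries, and nothing in the labels says whether they came from separate cultures, so that p-values measure only the spread between these libraries. Proteins and their phosphorylation were not analysed here.

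TBK1 and IKK-epsilon, the product of IKBKE, are related kinases that sensors of foreign or misplaced nucleic acid switch on through adaptors such as STING, MAVS and TRIF. They phosphorylate IRF3 and IRF7, which then pair, enter the nucleus and start transcription of type I interferon genes. The other factors of the family share the DNA-binding domain and differ in how they are switched on: IRF1 is made in response to interferon gamma and inflammatory cytokines, IRF2 competes with it for the same sites, IRF5 acts below Toll-like receptors, and IRF8 belongs to myeloid and B cells.

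Counts in genes ranged from 64281850 to 86010100 per library. Levels are given as CPM (counts per 1000000, with library sizes scaled by TMM). A call means an adjusted p under 0.05 in edgeR's quasi-likelihood test, with the Benjamini-Hochberg method applied over all tested genes. By this rule 17.4% of 19159 tested genes were called, 10.6% lower and 6.75% higher with ACBI1. The degrader acts on proteins, and no transcript of SMARCA4 (log2 change 0.70, adjusted p 0.0583), SMARCA2 (-0.40, adjusted p 0.163) or PBRM1 (0.10, adjusted p 0.734) was called. Of 9 epithelial and lung markers, 5 had at least 10 counts in every library, while the lung factor NKX2-1 was at 0 counts in all 4. The 9 summed to 982 and 1035 CPM with DMSO and to 323 and 202 CPM with ACBI1, and KRT7 held the largest part of the DMSO sums (678 and 680 CPM, against 179 and 60.3 CPM). EPCAM went the other way, with 5.38 and 2.78 CPM against 15.6 and 4.84 CPM, and was not called (log2 change 1.32, adjusted p 0.179). The 10 leukocyte and endothelial markers summed to 12.9 and 49.4 CPM with DMSO and to 0.190 and 0.336 CPM with ACBI1. With DMSO nearly all of this came from PECAM1 (997 and 3461 counts, against 1 and 3 with ACBI1), and with ACBI1 the larger part came from CD14 (10 and 15 counts). CD3E and MS4A1 were at 0 in each library, and the pan-leukocyte gene PTPRC had at most 2 counts. The part of these marker changes in the results was not tested, and in bulk RNA fewer cells of a type and less RNA per cell cannot be told apart.

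Of the 8 genes, 7 could be tested and 1, IRF8, was too low to judge. IKBKE, IRF1 and IRF7 fell with ACBI1, by 6.72-fold, 4.71-fold and 2.45-fold, and were called lower, beside 10.6% of all tested genes. The call of IRF7 was close to the threshold (adjusted p 0.0425 in edgeR's test). None of the 7 was called higher, beside 6.75% of all tested genes. The median log2 change of the 7 was -0.88, beside 0.01 for all tested genes. TBK1, IRF2, IRF3 and IRF5 were not called. At an unadjusted p under 0.05 there were 4 genes, the 3 that fell and IRF2, and none with a rise, beside 6490 (33.9%) of all tested genes. The 2 groups did not overlap in 6 of the 7 genes, all but IRF5, and in 63.2% of all tested genes. ACBI1 was the lower group in 5 of the 6 (32.2% of all tested genes) and the higher in 1, IRF3 (31.1%).

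**Figure D1:**
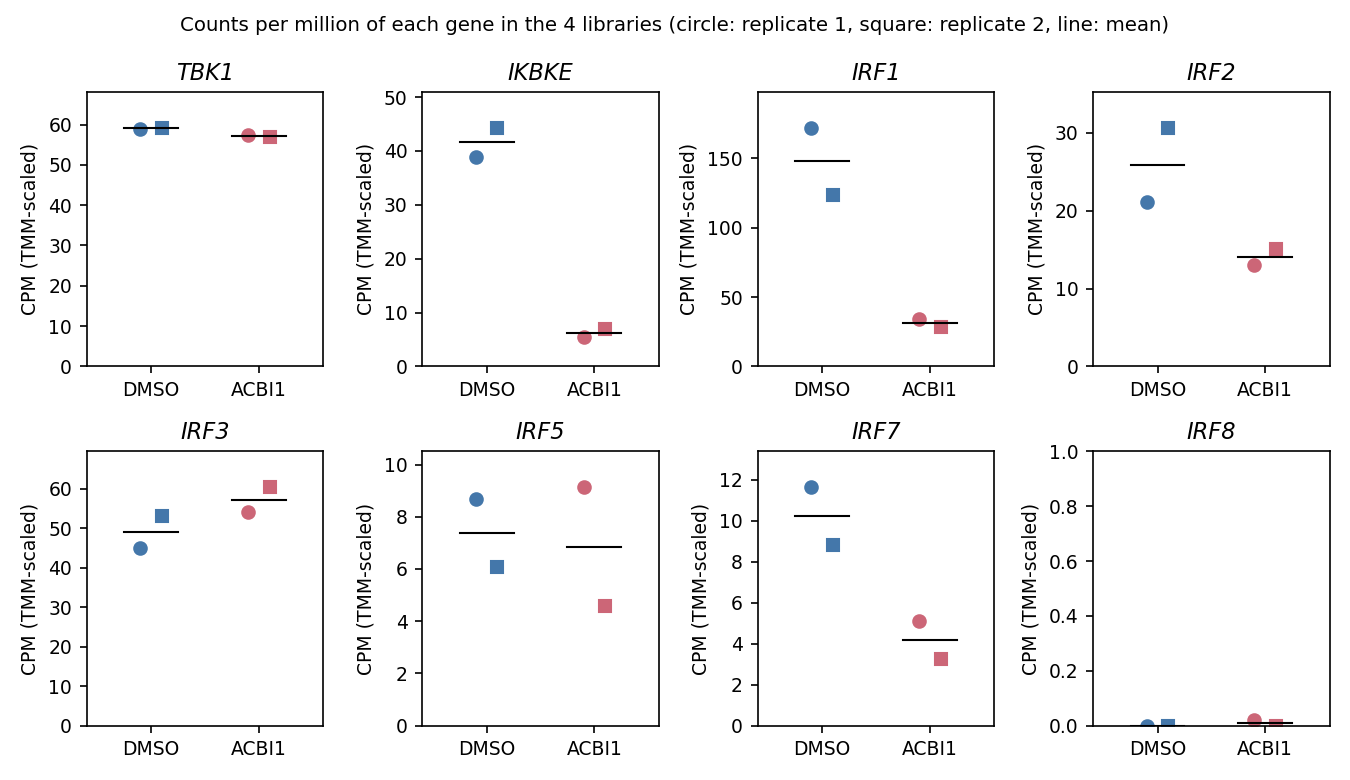
CPM of each of the 8 genes in the 4 libraries, with 1 panel per gene, a vertical axis from 0 and the mean of each group as a line. IKBKE, IRF1 and IRF7 lie lower with ACBI1, TBK1 lies between 57.0 and 59.2 CPM in all 4 libraries, and IRF8 is at or near 0.

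The kinases came first. IKBKE, at chr1:206470476-206496889 (plus strand; all gene positions are those of GENCODE 29 on GRCh38), stood at 38.9 and 44.3 CPM with DMSO, against 5.47 and 6.91 CPM with ACBI1. Both ACBI1 values lay far under both DMSO values, and the gap was several times the spread within either group. The log2 change was -2.75 (SE 0.21, 95% interval -3.25 to -2.24, adjusted p 0.00231), and 3.44% of all tested genes had a fitted fall at least as large. IKBKE was called lower with any 1 library left out, with log2 changes from -2.93 to -2.58. The counts behind these values were 6354 with DMSO and 943 with ACBI1. Its antisense gene IKBKE-AS1 shares 156 exonic bases with it and had at most 3 counts in a library.

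TBK1 (chr12:64451880-64502108, plus strand), the kinase of the pair that most cells make all the time, had 58.8 and 59.2 CPM with DMSO and 57.5 and 57.0 CPM with ACBI1. The values of the 4 libraries differed by only a few percent. The log2 change was -0.04 (SE 0.14, adjusted p 0.862), with a 95% interval from -0.39 to 0.31, and under scaling by library size only it changed sign to 0.04. An antisense gene listed as ENSG00000277895 shares 702 bases with TBK1, 14.7% of its exonic length. It had 29 and 38 counts against 6 and 9, few beside the 3738 to 5148 counts of TBK1.

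The ratio of IKBKE counts to TBK1 counts does not depend on how libraries are scaled against each other. It was 0.661 and 0.748 in the DMSO libraries and 0.0952 and 0.121 in the ACBI1 libraries. The ratio was 6.55-fold lower with ACBI1, a log2 difference of -2.71, with an SD of 0.13 between the DMSO libraries and 0.25 between the ACBI1 libraries (n = 2 each). With 2 against 2 libraries the exact two-sided permutation test cannot go below p = 0.33, and gave that value. Per kilobase of exons, IKBKE held 45.4% and 48.5% of the summed level of the 2 kinases with DMSO, and 10.7% and 13.2% with ACBI1.

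The promoters of IKBKE and, further on, of IRF1 are shown because these genes had the 2 largest falls of the 8. The sequence is the 250 bases before the RefSeq start of IKBKE (GRCh38.p14), 5′ to 3′ on the strand of the gene, at chr1:206470226-206470475 (plus strand). Capitals would mark a match to 4 motifs, searched on both strands: the interferon-stimulated response element (ISRE, GAAA, any 2 bases and GAAA again), the STAT site GAS (TTCNNNGAA), the 10-base NF-kB site and the AP-1 site (TGANTCA).
IKBKE: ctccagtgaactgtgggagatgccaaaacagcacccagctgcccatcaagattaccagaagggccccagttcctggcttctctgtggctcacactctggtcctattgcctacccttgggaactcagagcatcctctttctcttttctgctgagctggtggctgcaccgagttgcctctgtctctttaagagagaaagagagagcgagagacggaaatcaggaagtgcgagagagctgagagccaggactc
The window holds no match, which says only that these letters are not in it. Among 27305 such windows, 3.07% hold the ISRE, 6.78% the GAS, 9.57% the NF-kB site and 6.60% the AP-1 site.

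Among the factors, IRF1 (chr5:132481609-132490798, minus strand) had the largest fitted change. Its level was 172 and 124 CPM with DMSO and 34.1 and 28.7 CPM with ACBI1. The DMSO libraries differed from each other, yet both lay well above both ACBI1 libraries. The log2 change was -2.23 (SE 0.22, 95% interval -2.77 to -1.70, adjusted p 0.00396), from -2.46 to -1.97 with 1 library left out, and it was called in each of these fits. The antisense gene IRF1-AS1, which shares 1716 exonic bases with IRF1, had 596 and 364 counts with DMSO and 78 and 70 with ACBI1, a log2 change of -2.68 (adjusted p 0.00770). Since no strand setting is stated, reads of IRF1 and IRF1-AS1 cannot be told apart where they overlap, though IRF1 had 22903 counts with DMSO against 960 for IRF1-AS1.

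The promoter window of IRF1 holds 2 matches. It lies at chr5:132490774-132491023 (minus strand), with the matches in capitals.
IRF1: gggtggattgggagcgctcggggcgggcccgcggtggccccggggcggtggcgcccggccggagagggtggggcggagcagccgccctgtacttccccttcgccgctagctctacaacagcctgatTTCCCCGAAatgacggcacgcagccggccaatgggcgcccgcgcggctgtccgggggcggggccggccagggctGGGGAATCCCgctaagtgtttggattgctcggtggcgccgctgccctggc
The first match is a GAS, 124 to 116 bases before the start, and the second an NF-kB site, 50 to 41 bases before it. The windows of TBK1, IRF5 and IRF8, set before the RefSeq start, were searched in the same way and hold no match. Those of IRF5 (chr7:128937677-128937926) and IRF8 (chr16:85902580-85902829) lie inside the GENCODE 29 spans of these genes, and that of TBK1 (chr12:64451870-64452119) nearly so. Bases upstream of the IRF5 and IRF8 spans were not searched. A match describes letters and shows neither binding nor a cause.

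IRF2 (chr4:184387713-184474580, minus strand), the counterpart of IRF1 at the same sites, had 21.1 and 30.7 CPM with DMSO and 13.1 and 15.1 CPM with ACBI1. The ACBI1 values were lower, but the gap between the groups was smaller than that between the DMSO libraries. The log2 change of -0.88 (SE 0.24, 95% interval -1.45 to -0.30, which leaves out 0) had an adjusted p of 0.0531 and was not called. It was called lower by DESeq2 (adjusted p 0.0115), when every gene with a count was kept (0.00315), in the fit with replicate numbers as a block (0.000845) and without DMSO replicate 1 (0.00774). The ratio of IRF1 counts to IRF2 counts was 8.13 and 4.03 with DMSO and 2.61 and 1.90 with ACBI1. That ratio was 2.58-fold lower with ACBI1, a log2 difference of -1.36, or -1.87 without DMSO replicate 2 and -0.86 without DMSO replicate 1 (exact two-sided permutation p = 0.33, the smallest possible).

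IRF3 and IRF7, the substrates of the kinases, were not alike in level. IRF3 (chr19:49659569-49665875, minus strand) had 45.1 and 53.1 CPM with DMSO and 54.0 and 60.4 CPM with ACBI1. The ACBI1 values were slightly higher, and the lowest of them was close to the highest DMSO value. The log2 change was 0.22 (SE 0.17, 95% interval -0.18 to 0.62, adjusted p 0.397), and IRF3 was not called under any of the 13 alternatives. BCL2L12, which lies on the opposite strand and shares 734 exonic bases with IRF3, rose: its CPM were 21.7 ± 3.13 with DMSO and 41.6 ± 1.23 with ACBI1 (SD, n = 2; log2 change 0.94, adjusted p 0.0198). Its adjusted p was 0.0852 when ACBI1 replicate 1 was left out and 0.0626 when ACBI1 replicate 2 was. Reads in the shared bases cannot be assigned to one of the 2 genes without the strand.

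IRF7 (chr11:612553-615999, minus strand), which cells make in larger amounts once interferon is present, had 11.6 and 8.83 CPM with DMSO and 5.08 and 3.26 CPM with ACBI1. Both ACBI1 libraries were lower than both DMSO libraries, and the spread was wide for both groups. The log2 change was -1.29 (SE 0.32, 95% interval -2.07 to -0.51) with an adjusted p of 0.0425, close to the threshold. The call was lost without DMSO replicate 1 (log2 change -1.07, adjusted p 0.0687), without ACBI1 replicate 1 (-1.64, adjusted p 0.0565) and without ACBI1 replicate 2 (-1.02, adjusted p 0.149).

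IRF5 (chr7:128937612-128950035, plus strand) had 8.68 and 6.09 CPM with DMSO and 9.14 and 4.58 CPM with ACBI1. The groups overlapped, with the highest and the lowest value both among the ACBI1 libraries. The log2 change was -0.11 (SE 0.39, adjusted p 0.879), and its 95% interval from -1.06 to 0.85 is the widest of the 7 genes. It was 0.18 without DMSO replicate 1 and 0.30 without ACBI1 replicate 2, so that no direction can be given. The 2 counts of IRF8 (chr16:85898803-85922609, plus strand) were both in ACBI1 replicate 1, and the other 3 libraries had 0, where 0 counts allow up to 0.0368 to 0.0458 CPM.

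Other genes of the family and the IRF2-binding co-repressors were examined next. IRF9, the DNA-binding part of the complex that interferon receptors switch on, had 88 and 68 counts with DMSO and 72 and 31 with ACBI1. These are 1.08 and 0.945 CPM against 0.804 and 0.473 CPM, lower with ACBI1, and the log2 change of -0.66 (SE 0.42) was not called (adjusted p 0.319). Another gene overlaps 48.4% of its exonic length. IRF4, known from lymphocytes, had 8 and 11 counts against 8 and 8, so that ACBI1 over DMSO was 0.833 (0.401 to 1.71, the exact 95% interval for counting error). IRF4 was too low to test. The co-repressor genes had log2 changes of 0.04 for IRF2BP1 (adjusted p 0.896), -0.18 for IRF2BP2 (adjusted p 0.621) and -0.49 for IRF2BPL (adjusted p 0.292). Without ACBI1 replicate 2 the first 2 of these changed sign, to -0.06 and 0.03, and IRF2BPL was called lower without DMSO replicate 1 (-0.81, adjusted p 0.0340). In all, edgeR called none of the 4 tested genes of this list, beside 17.4% of all tested genes. None had an unadjusted p under 0.05, beside 33.9% of all tested genes. The other tests and filters with all 4 libraries and no block called none either.

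**Figure D2:**
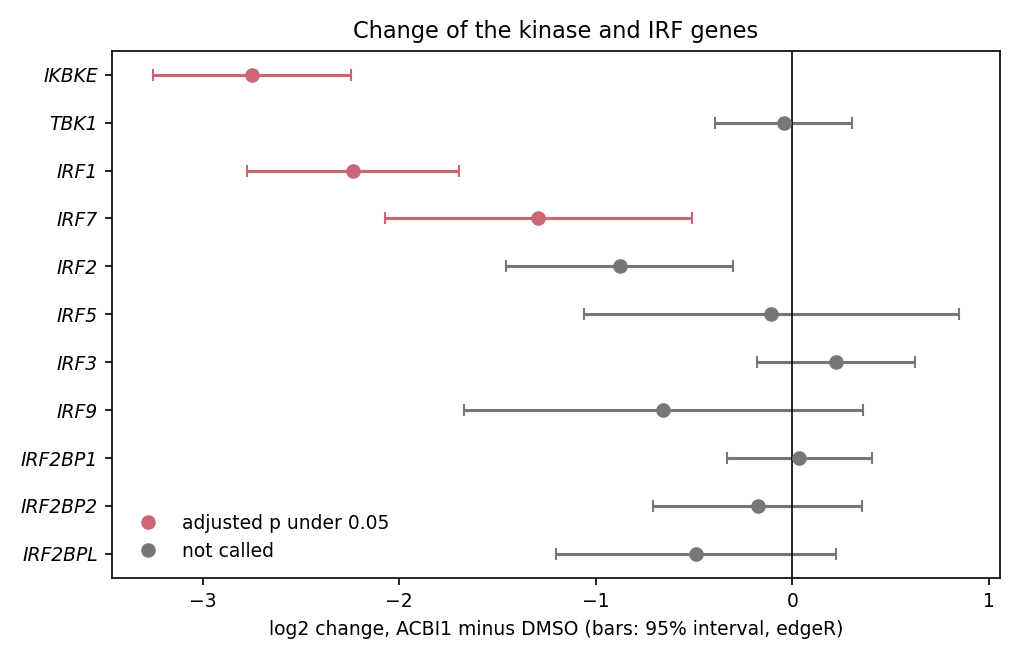
Log2 change (ACBI1 minus DMSO) of the 7 tested genes, of IRF9 and of the 3 co-repressor genes, with 95% intervals from edgeR as bars. The intervals of IKBKE and IRF1 lie wholly below -1, and those of TBK1, IRF3 and IRF5 include 0.

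Levels of different genes were compared as CPM per kilobase of exons. With DMSO the order was IRF1 at 19.0 ± 4.38, IRF3 at 12.9 ± 1.49, TBK1 at 12.4 ± 0.0503, IKBKE at 10.97 ± 1.01, IRF2 at 8.31 ± 2.16, IRF7 at 3.89 ± 0.758 and IRF5 at 1.69 ± 0.419 CPM per kb (SD, n = 2). IRF3 and TBK1 overlapped, and they changed places (17.1 and 18.1 CPM per kb) when the longest transcript was taken as the length. With ACBI1 the order was IRF3 at 15.1 ± 1.19, TBK1 at 12.02 ± 0.0732, IRF2 at 4.53 ± 0.468, IRF1 at 4.03 ± 0.489, IKBKE at 1.63 ± 0.268, IRF7 at 1.59 ± 0.489 and IRF5 at 1.57 ± 0.737 CPM per kb (SD, n = 2). In that order IRF2 and IRF1 overlapped, and so did IKBKE, IRF7 and IRF5.

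The make-up of the family was taken as shares of the level per kilobase. Over the 9 IRF genes, this level summed to 47.4 and 44.8 CPM per kb in the DMSO libraries and to 27.1 and 26.9 CPM per kb in the ACBI1 libraries. IRF1 held 46.5% and 35.4% of that sum with DMSO and 16.1% and 13.7% with ACBI1. IRF3 held 25.04% and 31.2% with DMSO and 52.6% and 59.2% with ACBI1, while its own CPM was not called as changed. For both genes the shares of the 2 groups did not overlap. Such shares assume that the exonic length stands for the transcripts present, which the counts cannot show. Levels and shares also count bases shared with other genes as length, and reads there may not be assigned. Of the exonic length this was 22% for IRF1, 19.35% for IRF3, 48.4% for IRF9, 14.7% for TBK1 and 4.1% for IKBKE. It was 0 for IRF2, IRF5 and IRF7.

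**Figure D3:**
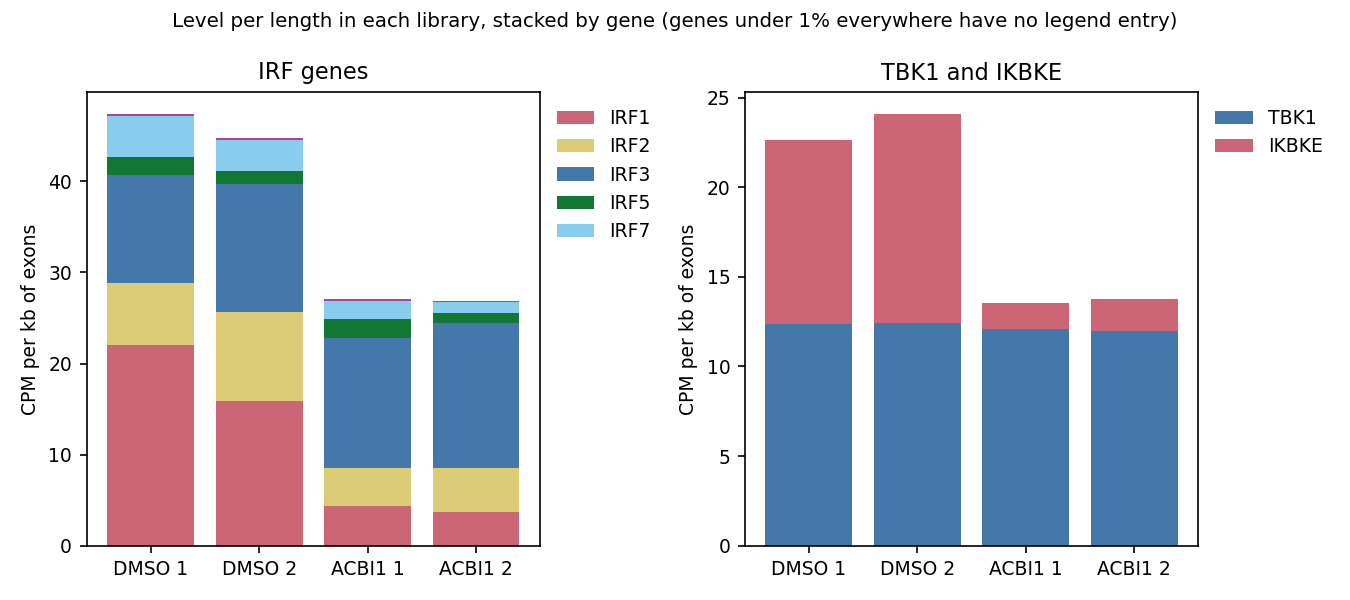
CPM per kilobase of exons in each library, stacked by gene, for the 9 IRF genes (left) and for TBK1 and IKBKE (right). With ACBI1 the IRF1 and IKBKE segments are shorter, and the IRF3 and TBK1 segments have about the height they have with DMSO.

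The kinases act through adaptors, and are held in check by ubiquitin-editing enzymes. Of 16 such genes, all tested, 7 were called lower and 1 higher, beside 10.6% and 6.75% of all tested genes. The median log2 change of the 16 was -0.35, beside 0.01 for all tested genes. STING1, the adaptor below the DNA sensor cGAS, fell from 1867 and 1955 counts to 115 and 97, a log2 change of -4.18 (adjusted p 0.00141). Genes of negative regulators fell too: the log2 change of TNFAIP3, which encodes A20, was -2.90 (adjusted p 0.00231), and that of the deubiquitinase gene CYLD was -1.31 (adjusted p 0.0103). The ubiquitin-binding adaptor gene OPTN changed by -1.002 on the log2 scale (adjusted p 0.0134), and TANK, a scaffold that binds both kinases, by -0.96 (adjusted p 0.0186). MAVS, the adaptor of the RNA sensors, was at -0.61 (adjusted p 0.0440) and lost its call when libraries were scaled by size alone (-0.53, adjusted p 0.0565). CALCOCO2 was the seventh gene called lower, and is named after its values were seen (-0.90, adjusted p 0.0216). TRAF3, which links the adaptors to the kinases, was the gene called higher, with a log2 change of 0.78 (adjusted p 0.0346), and TICAM1, which encodes TRIF, was not called (0.36, adjusted p 0.225). STING1, TNFAIP3 and CYLD were called with any 1 library left out, and the list then held 3 calls without ACBI1 replicate 1 and 4 without ACBI1 replicate 2. OPTN, TANK and CALCOCO2 were not called without either ACBI1 library, TRAF3 was not called without DMSO replicate 2 or either ACBI1 library, and MAVS was not called with any 1 library left out.

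For the classical IKK kinases and the factors that act on IRF promoters, the share to compare with is the 17.4% of all tested genes called. At an unadjusted p under 0.05 it is 33.9%. None of the 3 genes CHUK (log2 change 0.24), IKBKB (-0.40) and IKBKG (-0.25) was called by edgeR, none had an unadjusted p under 0.05, and no other test or filter with all 4 libraries called one. IKBKB was called lower without DMSO replicate 1 (-0.90, adjusted p 0.00922) and had a log2 change of 0.38 without DMSO replicate 2. Of 7 STAT and NF-kB genes, 1 was called: STAT2, a partner of IRF9, had 3507 and 4771 counts with DMSO and 1102 and 1287 with ACBI1, a log2 change of -1.78 (adjusted p 0.0164). The NF-kB genes RELA and NFKB1 had log2 changes of 0.50 (adjusted p 0.111) and -0.49 (adjusted p 0.208). REL, named after its values were seen, had 0.56 (adjusted p 0.0539) and was called higher under 4 alternatives without a block, among them DESeq2 (adjusted p 0.0319). RELB was called higher without DMSO replicate 1 (0.93, adjusted p 0.0245) and not in the test on all libraries (0.51, adjusted p 0.274). With the replicate block RELA, RELB and REL were called higher and NFKB1 lower (adjusted p from 0.00312 to 0.0127). The median of the 7 was 0.02, and 3 of them (42.9%) had an unadjusted p under 0.05. These are transcripts, and the activity of the factors was not analysed here.

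Textbook targets of the factors were followed in 2 lists. Like the other lists, they were chosen with earlier results of these data known and were not tested as sets. Of 16 targets of IRF3 and IRF7, 12 could be tested, with a median log2 change of -1.78, beside 0.01 for all tested genes. Of the 12, 6 were called lower and 1 higher, beside 10.6% and 6.75% of all tested genes. OASL fell from 113 and 137 counts to 1 and 5, for a log2 change of -5.30 (adjusted p 0.00854). Leaving out ACBI1 replicate 1 gave -4.39, and leaving out ACBI1 replicate 2 gave -7.03. The log2 change of IFIT2 was -2.43 (adjusted p 0.0182; 0.0599 without ACBI1 replicate 1) and that of IFIT3 was -2.31 (adjusted p 0.00765). For OAS1 it was -2.39 (adjusted p 0.0259; 0.0669 without ACBI1 replicate 2), or -3.15 without ACBI1 replicate 1. HERC5, named after its values were seen, was the gene called higher, with 1051 and 1000 counts against 3333 and 1954 (log2 change 1.32, adjusted p 0.0100; 0.0503 without ACBI1 replicate 1). The interferon gene IFNB1, the best known target of IRF3, had 2 counts over the 4 libraries, 1 in each group, and IFNL1 had none.

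Of 13 targets of IRF1 and IRF2, all were tested, and their log2 changes, each of them negative, had a median of -1.72. The test called 11 of them lower, beside 10.6% of all tested genes. Fewer were called in some fits with 1 library left out, as was so over all tested genes. CASP1, an inflammatory caspase, had 501 and 234 counts with DMSO and 1 and 0 with ACBI1, so that DMSO was 743 times as high (133 to 29395, the exact 95% interval for counting error). The fitted log2 change of CASP1 depends on the prior count: it was -9.20 (adjusted p 0.00265), -11.42 without ACBI1 replicate 1 and -8.54 without ACBI1 replicate 2. The log2 change of GBP2, a guanylate-binding protein gene, was -5.01 (adjusted p 0.00185), and that of TLR3, a receptor for double-stranded RNA, was -2.62 (adjusted p 0.00357). For SOCS1, a brake on interferon signalling, it was -2.53 (adjusted p 0.0230), or -1.78 without DMSO replicate 2 and was not called without either ACBI1 library (adjusted p 0.0529 and 0.0619). The lists hold genes that other factors also act on, so their counts do not assign a change to one factor.

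**Figure D4:**
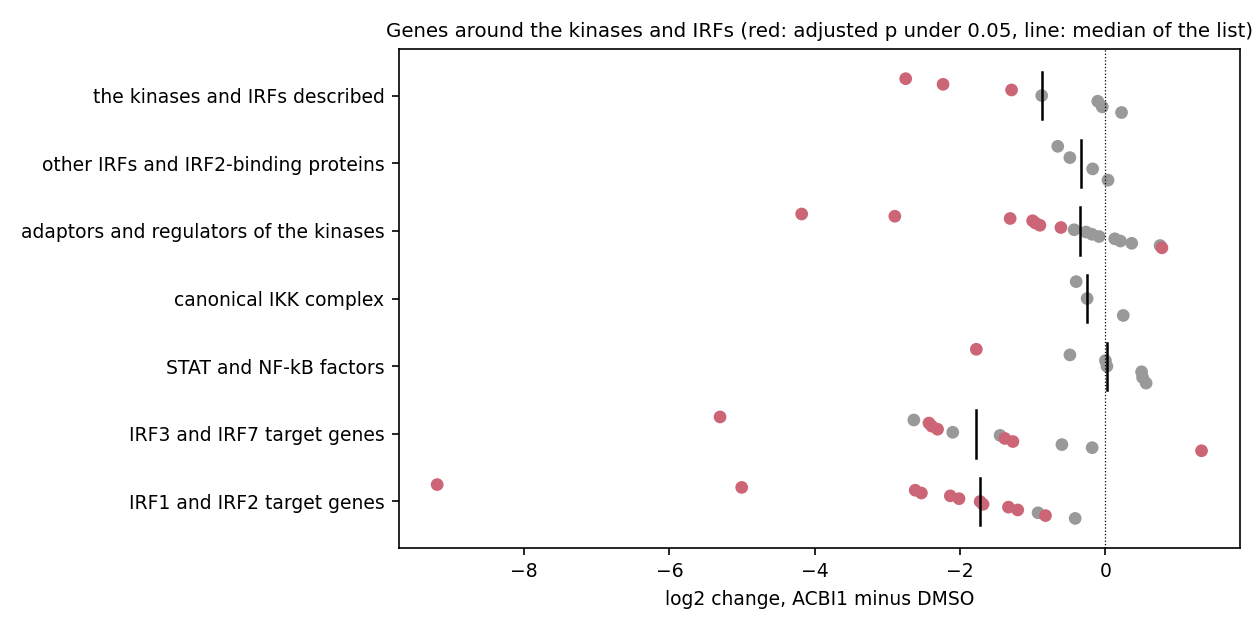
Log2 change (ACBI1 minus DMSO) of each tested gene, by list, with the median of the list as a line and called genes in red. Both target lists lie mostly below 0, with medians of -1.78 and -1.72, and the IKK, STAT and NF-kB genes lie between -0.49 and 0.56 apart from STAT2.

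Genes with the most similar pattern were sought for each gene that fell, among 10589 other protein-coding genes whose mean reached 5 CPM, by the Euclidean distance between log2 CPM in the 4 libraries, each centred on its mean. The nearest to IKBKE were CSRNP1 (distance 0.10), TLR3 (0.21) and COL5A1 (0.26). Of these, TLR3 stands in the list of IRF1 and IRF2 targets. CSRNP1 had 169 and 194 CPM with DMSO and 22.3 and 28.0 CPM with ACBI1, and so was higher in replicate 2 than in replicate 1 of both groups, as IKBKE was. The nearest to IRF1 were CLCF1 (0.07), GBP1 (0.10) and MTSS1 (0.15). CLCF1 had 30.5 and 22.6 CPM against 6.48 and 5.28 CPM, and GBP1, which stands in the list of IRF1 targets, had 26.2 and 18.8 CPM against 5.63 and 4.61 CPM. The nearest to IRF7 were EFCAB2 (0.08), PTGFR (0.12) and ADPRHL1 (0.13). With 4 libraries such likeness describes these samples only.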

How the data were processed

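RNA-seq libraries of H1792 cells, 2 with DMSO and 2 with ACBI1, were analysed from deposited raw counts of reads per gene symbol, 1 file per library. TopHat2 2.1.1, HTSeq 0.11.0 and the genome build hg38 are named, without role, per the submitters' processing notes. The annotation and the strand setting are not given in the sources used here. The submitters' library kit is one sold for DNA, and how RNA was selected and copied is not stated. Reads assigned to genes made up 84.6% to 86.1% of the reads listed, and the other lines were left out. A filter with edgeR 4.0.16 (filterByExpr, minimum count 10, minimum total 15) kept 19159 genes, and a gene that failed it was taken as too low to judge. Counts were scaled by TMM and tested on treatment alone (glmQLFit, glmQLFTest, two-sided, R 4.3.3), with a common biological coefficient of variation of 0.244. The SE is the log2 change over the square root of F, and its interval uses the test's degrees of freedom. Floors (3 counts) and counting intervals cover counting error only. Positions, exonic lengths and overlaps came from GENCODE 29 (GRCh38), and promoters from RefSeq (GRCh38.p14), whose table matched 5 of the 8 genes.

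The 8 genes and the lists were chosen with earlier results of these data known. The text names the 8 genes, others of the family, TANK, TRAF3, MAVS, TICAM1, STING1, the degrader's targets, genes whose exons overlap the 8, at most 4 called genes per list by size of change, and the 3 genes most like each called gene. Alternatives were other scalings, filters and tests (DESeq2 1.42.0, limma 3.58.1 with voom, a newer edgeR fit), the replicate block and each library left out. Results on some single genes of the lists are not reported here. The edgeR script was tested on simulated counts.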

Additional observations from a re-analysis of the deposited data

How the results depend on the processing

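With 1 library left out, the lone library of its group is taken to vary like the other group. IKBKE and IRF1 were called lower under all 13 alternatives, and IRF7 under the 9 that kept all libraries. TBK1 reversed under scaling by library size only (log2 change 0.0436), which moved the median of all genes by 0.09. IRF2 was called with every gene with a count (-0.89), DESeq2 (-0.88) and the block (-0.86). With 1 library left out, log2 changes ranged from -1.12 to -0.59 for IRF2, -0.68 to 0.30 for IRF5 (0.18 without DMSO replicate 1) and -1.64 to -1.02 for IRF7. The cause of these changes was not tested.

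Over all genes, 2202 were called higher and 3316 lower with every gene with a count, and 415 to 1651 higher and 964 to 2641 lower with 1 library left out. The replicate block called 3708 higher and 4201 lower, 7909 in all, which include all 3331 called without it. The correlation of the deviations of same-numbered libraries was 0.615 over 11160 genes, so that libraries with the same number deviated alike. The main test, on treatment alone, does not take this into account. No label names a shared batch, and with 2 pairs the source of the likeness was not tested. Under the block 1 gene of the other IRF and co-repressor list was called and 5 STAT and NF-kB genes. The STAT and NF-kB list held 2 calls with library size only, upper quartile, DESeq2 and a mean of at least 5 CPM. That filter, which tests fewer genes, left 4 calls among IRF3 and IRF7 targets and 7 among IRF1 and IRF2 targets. With 1 library left out, calls ranged from 0 to 1 among other IRF genes and in the IKK complex, 3 to 7 among adaptors, 1 to 2 among STAT and NF-kB genes, 5 to 8 among IRF3 and IRF7 targets and 5 to 11 among IRF1 and IRF2 targets.

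With the longest transcript as length, levels with DMSO were 18.1 (TBK1), 12.9 (IKBKE), 28.7 (IRF1), 11.2 (IRF2), 17.1 (IRF3), 2.47 (IRF5) and 4.99 (IRF7) CPM per kb, and the share of IKBKE in the kinases was 41.6% with DMSO and 9.85% with ACBI1. Depth limited the result for IRF4 and IRF8.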
